A study of Mus musculus with 9 samples.

Results

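The genes described here make up the machinery that copies DNA and the regulators that switch it on as a cell passes from G1 into S phase. They were taken by name from a list of 55 genes, and 52 of them were measured among the 12393 genes read by the arrays. Gins2, Chaf1a and E2f2 were not analysed here. The cells were regulatory T (Treg) cells, separated with magnets as CD4+CD25+ cells from mice of the C57Bl/6 strain, and 3 independent samples were run per group on single-colour Affymetrix arrays. The CBP-deleted group carried the genotype fl-CBP/Foxp3cre, in which a floxed CBP gene is cut by a Cre recombinase made from the Foxp3 locus. The p300-deleted group carried fl-p300/Foxp3cre, and the control group was labelled Foxp3cre and is also called wild type in the sample names. Cre is therefore made where Foxp3 is used, and any cell in the preparation that never did keeps the enzyme. CBP and p300 are related enzymes that acetylate histones and other proteins and act as coactivators of many transcription factors. Age and sex are not given in the labels. The comparison of each knockout with the control asks which transcripts differ between these Treg cell preparations. Loss of the enzyme cannot be told apart there from any other difference between knockout and control cells, such as one at the Foxp3 locus.

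Replication is prepared in G1, when the origin recognition complex, Cdc6 and Cdt1 load the ring-shaped Mcm helicase onto DNA. At the start of S phase kinases that include cyclin E with Cdk2 activate the helicase, and the polymerases, the sliding clamp Pcna and the enzymes that make deoxynucleotides then carry out synthesis. Most of these genes are transcribed in a wave at the G1/S boundary under E2F transcription factors, and in a resting lymphocyte they are low. Treg cells divide more often in the body than other CD4+ T cells, so a preparation of them holds some cells in cycle.

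E2F factors bind short words near the start of many of these genes, and promoters of members that carry one are shown so that the shared feature can be seen. The windows are RefSeq sequence of GRCm38.p6, from 250 bases before to 50 bases after each transcription start, and 46 of the 55 listed genes had one. The words searched were TTTCCCGC, TTTGGCGC, TTTCGCGC and TTTGCCGC on both strands, and TTTCGCGC can overlap its own complement. Of the 56 windows of members, 32.1% held at least 1 such word, against 2.26% of all 32851 windows in the table and 3.38% of the windows of genes on the array. The 5 windows below belong to members that passed the test in at least 1 comparison, each with the lowest adjusted p among the members of its role that have an E2F word. Each reads 5′ to 3′ in the direction of transcription, and capitals mark the E2F word.
Mcm3: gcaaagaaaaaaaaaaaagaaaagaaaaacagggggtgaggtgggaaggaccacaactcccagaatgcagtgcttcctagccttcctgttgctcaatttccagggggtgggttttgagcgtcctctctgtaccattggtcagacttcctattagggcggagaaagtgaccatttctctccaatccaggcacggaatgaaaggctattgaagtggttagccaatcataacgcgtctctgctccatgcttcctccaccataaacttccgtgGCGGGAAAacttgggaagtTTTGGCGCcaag
Pole2: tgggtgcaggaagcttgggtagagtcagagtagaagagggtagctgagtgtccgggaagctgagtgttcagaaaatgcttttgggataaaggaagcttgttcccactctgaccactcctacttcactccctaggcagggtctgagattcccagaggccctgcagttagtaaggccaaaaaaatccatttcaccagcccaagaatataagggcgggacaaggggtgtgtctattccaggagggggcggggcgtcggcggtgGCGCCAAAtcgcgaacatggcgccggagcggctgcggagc
Hells: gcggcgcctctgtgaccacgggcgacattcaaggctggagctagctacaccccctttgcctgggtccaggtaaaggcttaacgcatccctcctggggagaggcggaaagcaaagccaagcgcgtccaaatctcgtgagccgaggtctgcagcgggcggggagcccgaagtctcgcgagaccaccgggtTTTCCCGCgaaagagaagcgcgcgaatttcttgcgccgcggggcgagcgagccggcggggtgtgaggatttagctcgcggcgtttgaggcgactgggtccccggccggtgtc
Lig1: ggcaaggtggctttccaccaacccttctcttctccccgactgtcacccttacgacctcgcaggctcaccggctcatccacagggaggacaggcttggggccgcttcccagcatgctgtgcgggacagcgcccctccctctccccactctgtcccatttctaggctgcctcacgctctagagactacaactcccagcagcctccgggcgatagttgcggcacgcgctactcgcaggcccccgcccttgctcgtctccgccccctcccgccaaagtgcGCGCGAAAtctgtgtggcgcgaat
Cdk2: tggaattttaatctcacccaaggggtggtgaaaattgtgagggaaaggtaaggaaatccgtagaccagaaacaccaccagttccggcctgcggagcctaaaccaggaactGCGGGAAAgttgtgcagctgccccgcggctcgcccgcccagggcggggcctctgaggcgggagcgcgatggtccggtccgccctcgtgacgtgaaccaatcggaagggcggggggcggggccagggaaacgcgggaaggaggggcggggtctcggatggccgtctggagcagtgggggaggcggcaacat
The Mcm3 window lies at chr1:20820263-20820562 on the minus strand and holds a word in each orientation, the first starting 20 bases and the second 39 bases past the start of transcription. The Pole2 window is chr12:69228141-69228440 on the minus strand, with its word at base 11 after the start. The Hells window, chr19:38930740-38931039 on the plus strand, has its word 62 bases upstream. The Lig1 window shown is chr7:13278576-13278875 on the plus strand, with the word at base 27 after the start. Lig1 has other windows without an E2F word, and the window with the most words was printed. The Cdk2 window is chr10:128705002-128705301 on the minus strand, and its word begins 140 bases upstream. A match is a stretch of letters and was not tested as a binding site.

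Words found near the start of genes used later in the cycle were counted for comparison. The cell cycle homology region, searched as TTTGAA and TTCGAA on both strands, is a word of genes expressed in G2 and mitosis. It stood in 17.9% of the replication windows, against 73.3% of the 30 windows of a list of mitosis genes. The share was 19.2% of all windows and 14.6% of the windows of genes on the array. The CCAAT word, bound by NF-Y, was in 55.4% of the replication windows, 73.3% of the mitosis windows, 37.4% of all windows and 37.1% of those of genes on the array. E2F words were in 10.0% of the mitosis windows.

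The array values are on a log2 scale, so that a difference of 1 is a doubling, and the array medians were 5.49 to 5.59. With 3 arrays per group, the array number sets the precision. Correlations between arrays were 0.994 to 0.997 within the knockout groups and 0.990 to 0.994 among controls. Control replicate 3 stood apart for these genes: it was the highest control array for 42 of the 52, while control replicates 1 and 2 were the highest for 4 and 6. The same array read 8.88 for the 18S ribosomal RNA control probe sets, against 5.82 and 6.20 in control replicates 1 and 2. In the knockouts 18S read 7.39 or more in every CBP-deleted array and 7.88 to 9.62 in p300-deleted arrays. The 3′ minus 5′ difference of the Gapdh control probe sets was 0.25, 0.60 and 0.20 in controls. It was -0.15 to 0.11 in CBP-deleted and 0.06 to 0.17 in p300-deleted arrays. For actin it was 0.28 to 0.44 in controls, 0.28 to 0.47 in CBP-deleted and 0.29 to 0.41 in p300-deleted arrays. The part of 18S and of these differences in the results was not tested. The markers of CD4 T cells were bright in every array (summed linear level 15036 to 15773 in CBP-deleted, 16726 to 17699 in p300-deleted and 13841 to 16184 in control cells). Foxp3, which defines Treg cells, was read at 2.73 to 2.97 in CBP-deleted and 2.58 to 3.19 in p300-deleted arrays, against 9.48 to 9.75 in the controls, although the genotype labels give all 3 groups a Foxp3cre allele. Which part of the transcript its probe set reads was not tested. The 8 Treg cell markers, Foxp3 among them, had summed linear levels of 8499 to 9031 in CBP-deleted and 9679 to 9982 in p300-deleted arrays. In controls the sum was 8751 to 9526. Of these 8, 2 rose in CBP-deleted and 1 rose in p300-deleted cells, and Foxp3 was the only 1 that fell in either. Crebbp, the gene of CBP, was 7.35, 7.11 and 7.13 in CBP-deleted arrays, against 7.56, 7.67 and 7.36 in controls (log2 difference -0.33, limma adjusted p = 0.123), so its reading is no check of the deletion. The p300 gene itself is not analysed here.

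The plot of all measured members by array shows the pattern that the comparisons below describe. Relative to the control mean, the median member stood at -0.50, -0.59 and -0.51 in the 3 p300-deleted arrays, at 0.10, 0.28 and 0.20 in the CBP-deleted arrays, and at -0.11, -0.12 and 0.21 in the controls. The mean was highest in CBP-deleted, intermediate in control and lowest in p300-deleted cells for 40 of the 52 members. It was highest in control and lowest in p300-deleted cells for 8, and 4 followed other orders. The spread was wider in the controls, where the median SD over members was 0.19 (n = 3), than in CBP-deleted (0.12) or p300-deleted cells (0.14).

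**Figure D1:**
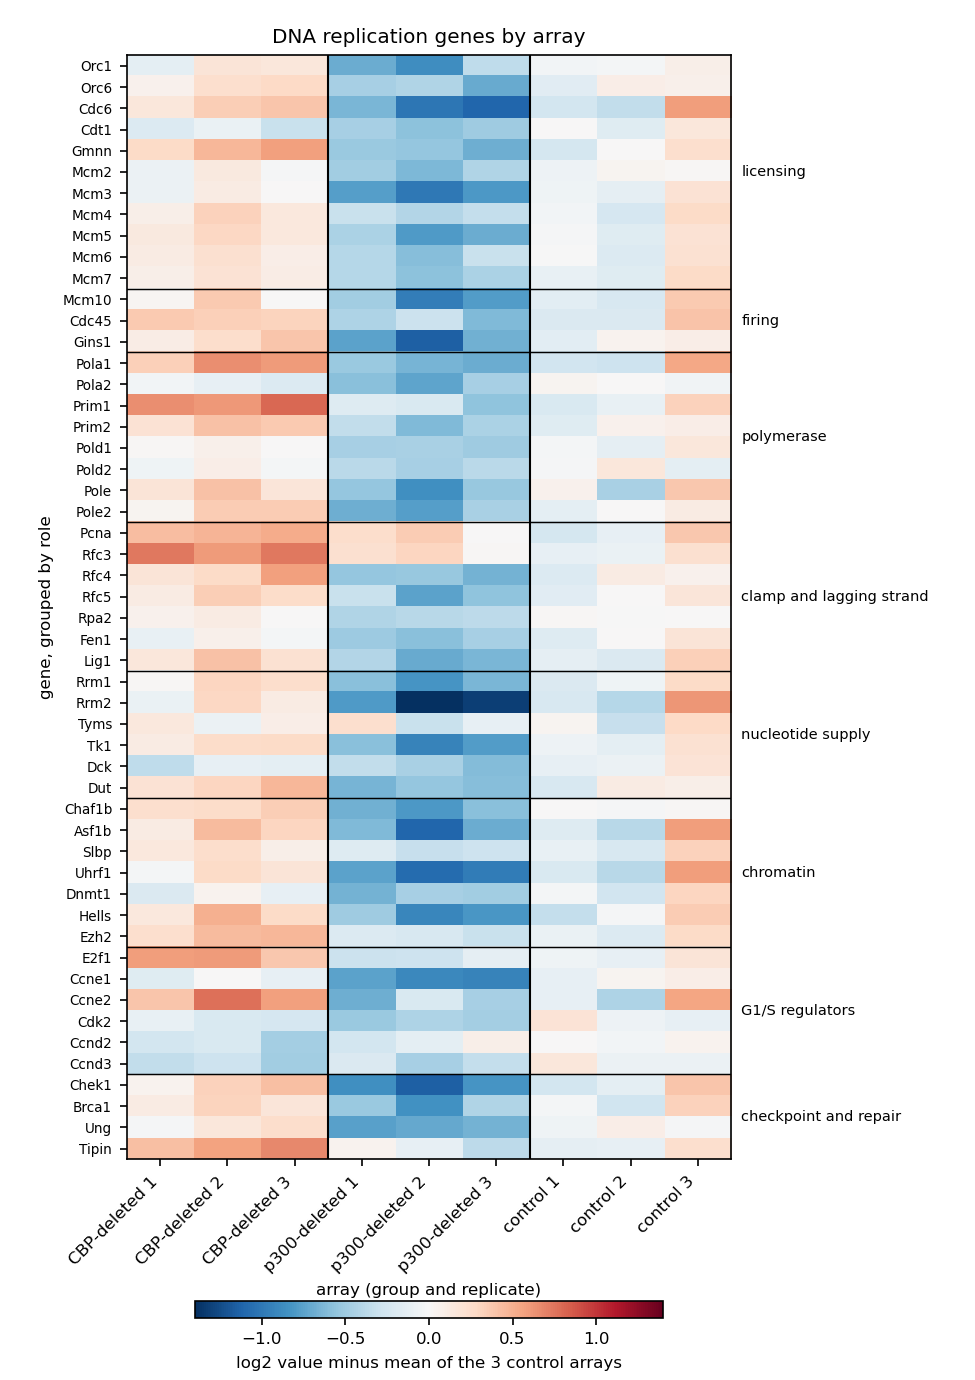
Heat map of the 52 measured members (down the page, grouped by role) in the 9 arrays (across, by group and replicate); colour is the log2 value minus the mean of the 3 control arrays. The 3 p300-deleted columns are blue for most genes, with medians of -0.50, -0.59 and -0.51, and control replicate 3 is redder than the other two controls, with a median of 0.21.

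In p300-deleted cells 35 of the 52 replication genes fell relative to the control and 0 rose (limma, adjusted p under 0.05 over all genes). Over all genes 2.04% fell and 2.02% rose. The median member was 0.54 lower on the log2 scale, where the median of all 12393 genes was -0.02, and 50 of 52 differences were negative. For 43 members every p300-deleted array lay below every control array, as did 11.5% of all genes. The falls ranged in size from 0.39 for Rpa2, a subunit of the single-strand binding protein, to 1.17 for Rrm2, the regulated subunit of ribonucleotide reductase. In bulk samples, fewer cells in S phase and less RNA of these genes per cell cannot be told apart.

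Of the 11 genes that license origins, 10 fell. Mcm3, a subunit of the helicase ring, read 8.76, 8.53 and 8.73 in p300-deleted arrays, against 9.47, 9.40 and 9.73 in controls. These groups did not overlap, and the difference was -0.86 (SE 0.11, adjusted p = 0.00272), a 1.81-fold fall. Of its 5 probe sets 3 passed and fell (-0.86, -0.79 and -0.70), and the 2 dimmest gave 0.09 and -0.06, so that with the mean of all 5 it was -0.46 with an adjusted p of 0.107 (range over the 19 alternatives 0.000882 to 0.107). The other ring subunits that fell were Mcm5 (-0.64), Mcm2 (-0.51), Mcm7 (-0.47) and Mcm6 (-0.44). Mcm4 was at 9.28, 9.18 and 9.26 in p300-deleted cells, against 9.55, 9.36 and 9.86 in controls, below them on all arrays, but its difference of -0.35 did not pass (adjusted p = 0.125).

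The loading factors fell as well. Cdc6, the ATPase that brings the helicase to the origin, read 6.14, 5.77 and 5.67 in p300-deleted arrays, against 6.52, 6.44 and 7.37 in controls. Its log2 difference was -0.92 (SE 0.22, adjusted p = 0.0390), with control replicate 3 far above the other two. Cdt1, the partner of Cdc6 in loading, fell by 0.51 and Gmnn, which encodes the Cdt1 inhibitor geminin, by 0.58. Of the origin recognition complex, Orc1 fell by 0.65 and Orc6 by 0.53. Orc1 is dim on this array, at 3.56 to 4.07 in p300-deleted and 4.39 to 4.51 in control cells.

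Among the 3 genes that turn the loaded helicase on, Gins1, a subunit of the GINS complex of the active helicase, fell most. It read 6.22, 5.83 and 6.30 in p300-deleted arrays, against 6.82, 7.02 and 7.06 in controls (-0.85, SE 0.14, adjusted p = 0.00918). All 3 knockout arrays were below the lowest control. Mcm10, a factor needed to activate the helicase, fell by 0.75. Cdc45, which joins Mcm and GINS in the active helicase, was -0.45 and did not pass (adjusted p = 0.152), with control values of 5.78, 5.78 and 6.38.

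Of the 8 polymerase genes 5 fell. They were Pole2 (-0.63) of leading-strand polymerase epsilon, Pola2 (-0.60) of the priming polymerase alpha, the primase subunit Prim2 (-0.46), and Pold1 (-0.47) and Pold2 (-0.41) of lagging-strand polymerase delta. Pold1 read 7.50, 7.51 and 7.46 in p300-deleted cells, against 7.93, 7.83 and 8.12 in controls. The catalytic subunits Pole (-0.64, adjusted p = 0.0803) and Pola1 (-0.62, adjusted p = 0.104) had differences as large but wider control arrays, and did not pass. Prim1, the catalytic primase, was 8.08, 8.05 and 7.70, against 8.05, 8.16 and 8.58 in controls, and the groups overlapped (-0.32, adjusted p = 0.260). Its second probe set, nearly as bright, gave -0.60 and did not pass (limma adjusted p = 0.0546 with every probe set tested on its own).

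The clamp and lagging-strand genes divided. Lig1, the ligase that seals Okazaki fragments (-0.59), Fen1, the nuclease that trims them (-0.52), the clamp loader subunits Rfc4 (-0.57) and Rfc5 (-0.54), and Rpa2 (-0.39) fell. With the probe sets used, the only members with a positive difference were in this group of 7. Pcna, the sliding clamp itself, read 11.78, 11.88 and 11.53 in p300-deleted arrays, against 11.28, 11.41 and 11.91 in controls (0.20, adjusted p = 0.506). Rfc3, another clamp loader subunit, differed by 0.18 (adjusted p = 0.515), but its second probe set gave -0.24 and the mean of both -0.03. Both sets of arrays overlapped. Without control replicate 3 the Pcna difference was 0.39 and passed (adjusted p = 0.0383, range over the 19 alternatives 0.0383 to 0.848).

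Of the 6 genes of nucleotide supply 5 fell. Rrm2 read 8.99, 8.37 and 8.46 in p300-deleted arrays, against 9.56, 9.38 and 10.40 in controls (-1.17, SE 0.23, adjusted p = 0.0212), a 2.26-fold fall. Control replicate 3 was the highest array, and all 3 knockout arrays were below all controls. Tk1, the thymidine kinase of S phase, fell by 0.77 (7.41, 7.07 and 7.22, against 7.93, 7.86 and 8.21 in controls). Rrm1, the large reductase subunit, fell by 0.69, Dut, which removes dUTP, by 0.59, and the deoxycytidine kinase Dck by 0.47. The second probe set of Rrm1 gave 0.41. Tyms, thymidylate synthase, read 3.15 to 3.69 in p300-deleted and 3.14 to 3.74 in control cells, at percentiles 18.9 to 28.7 of the named probe sets of an array, and had 3 dim probe sets (-0.06, adjusted p = 0.893).

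Genes that rebuild chromatin behind the fork fell in 4 of 7 cases. Chaf1b, a subunit of the histone chaperone CAF-1, read 6.11, 5.98 and 6.19 in p300-deleted arrays, against 6.78, 6.76 and 6.80 in controls. The controls lay close together and above all knockout arrays, and the difference was -0.69 (SE 0.10, adjusted p = 0.00704). Uhrf1, which recognises newly copied methylated DNA, fell by 0.94, its partner Dnmt1, the maintenance methyltransferase, by 0.54, and the chromatin remodeller Hells by 0.75. The histone chaperone Asf1b (-0.81, adjusted p = 0.0565), the histone mRNA binding protein Slbp (-0.27, adjusted p = 0.271) and Ezh2, the methyltransferase of Polycomb complex 2 (-0.23, adjusted p = 0.319), did not pass.

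Of the 6 regulators of the G1/S step 2 fell. Ccne1, cyclin E1, read 6.10, 5.95 and 5.91 in p300-deleted arrays, against 6.73, 6.89 and 6.94 in controls, with no overlap (1.82-fold lower, SE 0.11 in log2, adjusted p = 0.00290). Cdk2, its kinase partner, fell by 0.48. The other 4 did not pass. E2f1, an activating E2F, was -0.24 (adjusted p = 0.321), cyclin E2 (Ccne2) was -0.45 (adjusted p = 0.301) on a dim probe set, and the early G1 cyclins Ccnd3 and Ccnd2 were -0.33 (adjusted p = 0.0945) and -0.11 (adjusted p = 0.614). Among the 4 checkpoint and repair genes, Chek1, the kinase that restrains origins when forks stall, fell by 0.94 (5.39, 5.11 and 5.42 in p300-deleted cells, against 5.99, 6.11 and 6.64 in controls). Ung, which removes uracil from DNA, fell by 0.71 (6.48, 6.52 and 6.58, against 7.18, 7.33 and 7.22). The repair gene Brca1 (-0.60, adjusted p = 0.0586) and the fork protection gene Tipin (-0.14, adjusted p = 0.625) did not pass. The dimmer probe sets of Brca1 gave -0.66, -0.25 and -0.01. Of these only -0.66 passed with every probe set tested on its own (limma adjusted p = 0.0322).

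**Figure D2:**
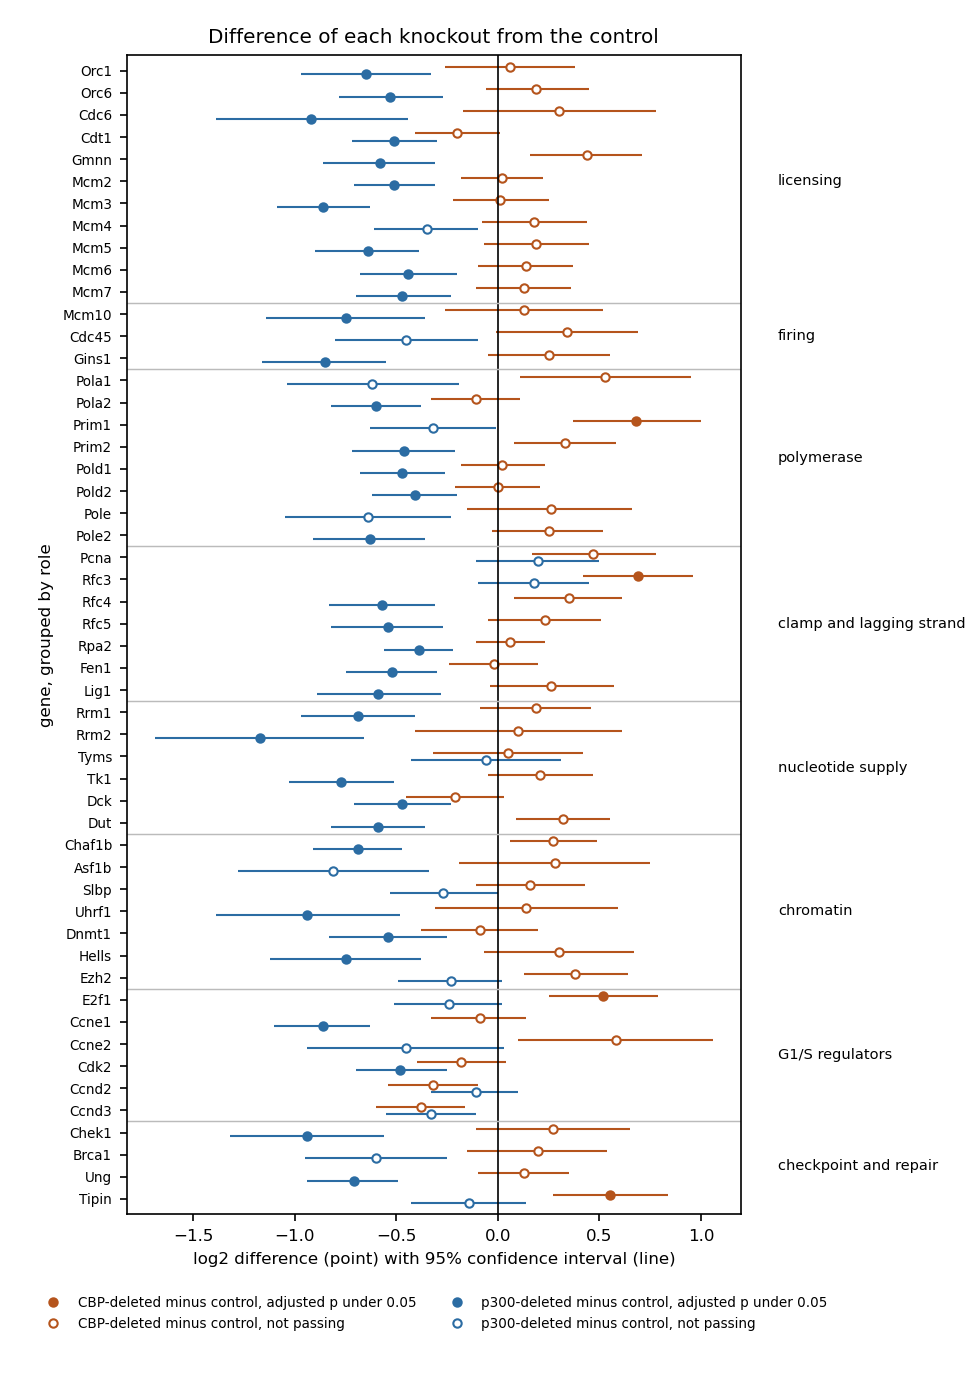
Log2 difference of each of the 52 members from the control (points) with its 95% confidence interval (lines), for p300-deleted and CBP-deleted cells; genes run down the page by role, and filled points passed the test. Most p300-deleted points lie left of 0 with a median of -0.54, and the CBP-deleted points scatter about a median of 0.19.

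The count of 35 changed when single arrays were left out. It was 5 without p300-deleted replicate 2, and 17 without replicate 1 or replicate 3 of that group. It was 18 without CBP-deleted replicate 2 and 19 without control replicate 1. Over all genes the number called fell too, from 503 to 65, 231, 341, 264 and 208 in the same order. At an unadjusted p under 0.05 in limma these fits had 44, 43, 41, 42 and 44 of the 52 members, against 43 with all arrays. Of all 12393 genes they had 1656, 1821, 2226, 2050 and 2177, against 2304 with all arrays. The median member stayed between -0.61 and -0.45 whichever single array was left out. Gins1, Chaf1b, Ccne1 and Ung kept their calls under all 19 alternatives, and Mcm3 kept its call without each single array.

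Among members with a promoter window, 14 of the 17 measured ones with an E2F word fell, and the median difference over these 17 was -0.59. Of the 27 without such a word 18 fell, and their median was -0.54. These are counts with no test. The 5 printed promoters belong to genes that fell in p300-deleted cells, and passing a comparison was part of how they were chosen. Several probe sets read 27 members. Of the 97 probe sets of members, 36 fell and 0 rose in the fit of every probe set. In that fit 255 of all 20380 probe sets fell and 286 rose. Besides Mcm3, the called genes Rpa2, Rrm1 and Chek1 had a dimmer probe set of the other sign. With the probe sets of each gene averaged, these genes lost their calls, at -0.17 for Rpa2, -0.14 for Rrm1 and -0.45 for Chek1.

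Markers of other cells differed between p300-deleted and control preparations. Of 5 plasma cell markers 4 rose, and their summed linear level was 9718 to 11609 in p300-deleted, against 4851 to 6075 in control arrays. Of 7 mast cell and basophil markers 5 rose (524 to 903, against 274 to 284), and of 9 neutrophil markers 2 rose (590 to 2796, against 201 to 403). Of 7 B cell markers 0 passed (603 to 1003, against 890 to 1029). Of 6 markers of CD8 T cells and NK cells 1 rose (1047 to 1654, against 1013 to 1454). Of all genes 2.02% rose and 2.04% fell. The part of these cells in the lower replication transcripts was not tested.

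In CBP-deleted cells 4 of the 52 replication genes rose relative to the control and 0 fell, where 2.14% of all genes rose and 2.79% fell. They were Rfc3, Prim1, Tipin and E2f1, and none of these 4 passed in the p300 comparison. The median member was 0.19 higher on the log2 scale, against -0.03 over all genes, and 42 of 52 differences were positive. For 11 members every CBP-deleted array was above every control array, as for 10.0% of all genes, and for 3 every array was below, as for 14.5%. At an unadjusted p under 0.05 there were 13 of 52 members higher and 2 lower, where 9.13% of all genes were higher and 11.2% lower.

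Rfc3 read 6.94, 6.80 and 6.94 in CBP-deleted arrays, against 6.08, 6.11 and 6.42 in controls (0.69, SE 0.13, adjusted p = 0.0139). Prim1 read 8.91, 8.87 and 9.06, against 8.05, 8.16 and 8.58 in controls (0.68, SE 0.14, adjusted p = 0.0234). In both, the lowest CBP-deleted array was above the highest control. Tipin read 9.34, 9.48 and 9.59, against 8.79, 8.80 and 9.16 in controls (0.55, SE 0.13, adjusted p = 0.0350). E2f1 read 6.21, 6.23 and 6.01, against 5.57, 5.52 and 5.81 in controls (0.52, SE 0.12, adjusted p = 0.0353). Here too the groups did not overlap, and in all 4 genes control replicate 3 was the control nearest to the knockout. The second probe sets of Rfc3, Prim1 and E2f1 had the same sign (0.51, 0.49 and 0.26) and did not pass.

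**Figure D3:**
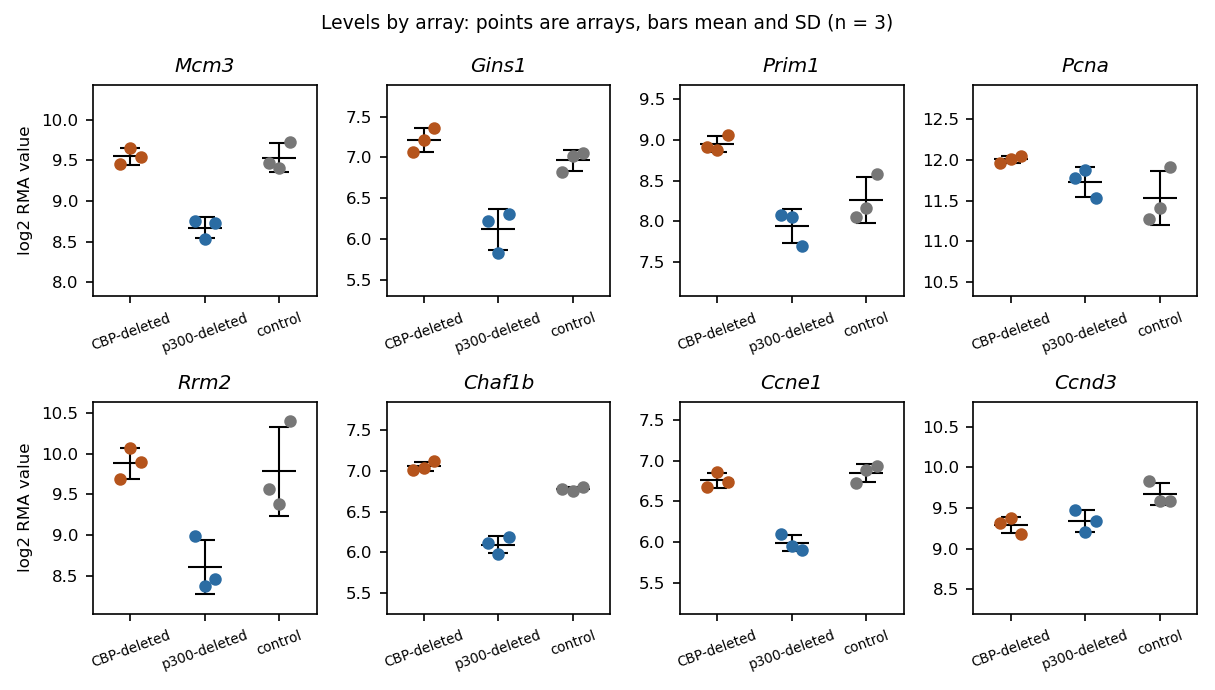
Log2 values of selected members in each array (points) with the mean and SD of each group (bars, n = 3), in CBP-deleted, p300-deleted and control cells; every panel spans the same range of log2 units. The panels are Mcm3, Gins1, Prim1, Pcna, Rrm2, Chaf1b, Ccne1 and Ccnd3; Gins1, Chaf1b and Ccne1 are below all controls in every p300-deleted array, and Prim1 is above all controls in every CBP-deleted array.

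Other members were close to the threshold. Pcna read 11.96, 12.01 and 12.05 in CBP-deleted arrays, against 11.28, 11.41 and 11.91 in controls, a difference of 0.47 (95% confidence interval 0.17 to 0.78, adjusted p = 0.0789). Gmnn was 0.44 (adjusted p = 0.0710) and Ezh2 0.38 (adjusted p = 0.0884). The D cyclins lay on the other side, with Ccnd3 at 9.32, 9.38 and 9.18 in CBP-deleted arrays, against 9.83, 9.59 and 9.59 in controls (-0.38, adjusted p = 0.0550), and Ccnd2 at -0.32 (adjusted p = 0.0890). The helicase subunits that fell in p300-deleted cells had differences of 0.01 (Mcm3), 0.02 (Mcm2), 0.19 (Mcm5), 0.14 (Mcm6) and 0.13 (Mcm7) here. Their 95% confidence intervals reached no lower than -0.22 and no higher than 0.45. For Rrm2 the interval was wide, -0.41 to 0.61 around 0.10, and control replicate 3 was its highest array of all 9. Both knockouts are set against the same 3 control arrays, so these values are given side by side with no test of likeness.

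The 4 calls in CBP-deleted cells were all lost when any 1 of CBP-deleted replicate 1, 2 or 3 or control replicate 1 was left out, leaving 0 members past the threshold. At an unadjusted p under 0.05 in limma these fits had 16, 13, 11 and 11 of the 52 members, and 16.4%, 16.9%, 14.8% and 16.9% of all genes, in either direction. Without control replicate 3 the count was 15, of which 14 rose (among them Pola1, Pcna, Ccne2, Ezh2 and Gmnn) and 1, Ccnd3, fell, and the median member was 0.32. Over all genes that fit called 1131, of which 491 rose and 640 fell, against 611 called with all arrays. At an unadjusted p under 0.05 in limma it had 35 of the 52 members and 24.0% of all genes. Without p300-deleted replicate 2 the count was 2 members, with 393 genes called. Of the markers of other cells, 3 of 7 B cell markers fell (summed linear level 483 to 712 in CBP-deleted, against 890 to 1029 in control arrays), and 2 of 6 markers of CD8 T cells and NK cells rose (853 to 1087, against 1013 to 1454). With all arrays 2.14% of all genes rose and 2.79% fell. None of 9 neutrophil markers (548 to 4222, against 201 to 403), 7 mast cell and basophil markers (258 to 562, against 274 to 284) or 5 plasma cell markers (4746 to 6199, against 4851 to 6075) passed. Their part in the result was not tested.

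Set directly against each other, 43 of the 52 members were higher in CBP-deleted than in p300-deleted cells and 0 were lower, where 3.20% of all genes were higher and 2.01% lower. The median member was 0.78 higher, against -0.02 over all genes, and for 48 members the arrays did not overlap, as for 15.8% of all genes in that direction. Chaf1b had the lowest adjusted p. It read 7.01, 7.04 and 7.12 in CBP-deleted arrays, against 6.11, 5.98 and 6.19 in p300-deleted arrays (0.96, SE 0.10, adjusted p = 0.00108). Rrm2 had the largest difference, 9.69, 10.07 and 9.89, against 8.99, 8.37 and 8.46 in p300-deleted arrays (1.27, SE 0.23). All 3 genes that turn on the helicase, all 8 polymerase genes and all 4 checkpoint and repair genes passed, as did 10 of 11 licensing, 6 of 7 clamp and lagging-strand, 5 of 7 chromatin, 4 of 6 nucleotide supply and 3 of 6 regulator genes.

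The 9 that did not pass were Cdt1, Pcna, Tyms, Dck, Slbp, Dnmt1, Cdk2, Ccnd2 and Ccnd3. The D cyclins had the only negative differences, Ccnd2 at 11.16, 11.21 and 10.94 in CBP-deleted arrays, against 11.16, 11.28 and 11.50 in p300-deleted arrays (-0.21, 95% confidence interval -0.42 to 0.01), and Ccnd3 at -0.05 (-0.27 to 0.17). For Pcna the difference was 0.27 (-0.03 to 0.58, adjusted p = 0.333). This comparison does not use the control arrays for its difference, although they enter the estimate of spread. Of the 43 calls, 21 held under all 19 alternatives and 22 without each single array, and the count was lowest, 22, without CBP-deleted replicate 2.

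Genes of the same pathway outside the list were also counted. Both the members and the other lists were chosen with earlier results of these data known, and the lists were not tested against each other. Of 35 other replication genes 5 fell and 0 rose in p300-deleted cells, with a median of -0.07, where 2.04% of all genes fell and 2.02% rose. Chtf18, part of an alternative clamp loader (-0.72), the nuclease Exo1 (-0.69), Dbf4, the activating subunit of the Cdc7 kinase (-0.58), and the initiation and checkpoint scaffold Topbp1 (-0.50) were the largest. In CBP-deleted cells 3 rose and 0 fell, with a median of 0.22, where 2.14% of all genes rose and 2.79% fell. The 3 were the origin recognition subunits Orc2 (0.52) and Orc3 (0.34) and the chromatin factor Cdca7 (0.44). Between the knockouts 7 were higher and 0 lower in CBP-deleted cells, with a median of 0.22, where 3.20% of all genes were higher and 2.01% lower.

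Of 21 further regulators of the G1/S step, 1 rose and 1 fell in p300-deleted cells, where 2.02% of all genes rose and 2.04% fell. Cdkn1b, which encodes p27, the inhibitor of cyclin E with Cdk2, read 9.79, 10.15 and 9.69 in p300-deleted arrays, against 8.70, 7.77 and 9.14 in controls (1.34, SE 0.26, adjusted p = 0.0202). The control arrays were widely spread, and the mean of its probe sets gave 0.50 (adjusted p = 0.164, the highest of its 19 alternatives, against 0.00318 for the lowest). The call was lost under 6 of them, among these the fit without p300-deleted replicate 1, p300-deleted replicate 2 or control replicate 1. E2f8, a repressing E2F that is itself made in S phase, fell by 1.04 (adjusted p = 0.0442), a call lost under 13 of 19 alternatives (adjusted p 0.0196 to 0.189). In CBP-deleted cells Cdk6, a partner of the D cyclins, rose by 0.54, and the other 20 did not pass, where 2.14% of all genes rose.

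Mitosis genes, which are used after replication, were counted in the same way. Of 31 measured, 15 fell and 0 rose in p300-deleted cells, with a median of -1.01, where the replication genes had -0.54. Over all genes 2.04% fell and 2.02% rose. Aurkb, a kinase of chromosome segregation, read 5.64, 4.98 and 5.32 in p300-deleted arrays, against 6.53, 6.25 and 7.27 in controls (-1.37, adjusted p = 0.0117). Mki67, a marker of cells in cycle, was 8.78, 8.03 and 8.06, against 9.25, 8.70 and 10.13 in controls (-1.07, adjusted p = 0.0647). In CBP-deleted cells 0 of the 31 passed in limma, with a median of 0.29. At an unadjusted p under 0.05 there were 5 of 31, all higher, where 9.13% of all genes were higher. Between the knockouts 30 of 31 were higher in CBP-deleted cells, with a median of 1.26, where 3.20% of all genes were higher. The difference between the replication and mitosis lists was not tested. Of the genes outside the list that the rule for named genes picked, 0 of 10 for p300-deleted against control cells and 0 of 4 for CBP-deleted against control cells kept their call under every alternative.

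**Figure D4:**
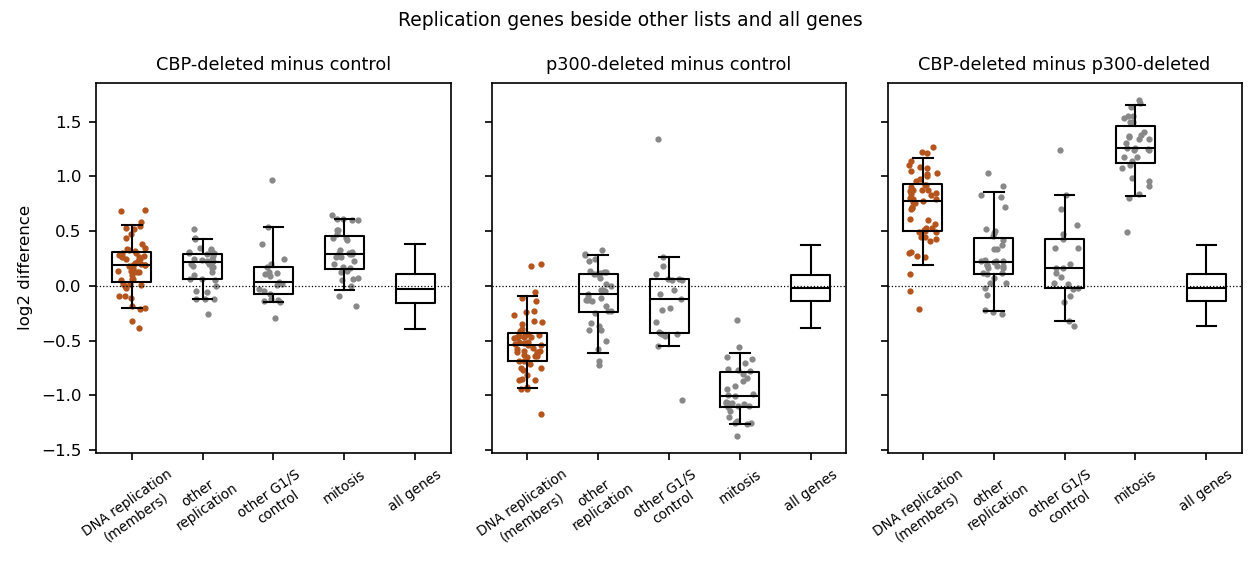
Box plots of log2 differences for the replication genes (n = 52), the other replication genes (35), the other G1/S regulators (21), the mitosis genes (31) and all 12393 genes, in the 3 comparisons; the box spans the quartiles, the line is the median and the whiskers reach the 5th and 95th percentiles, and points are genes (not drawn for all genes). For p300-deleted against control cells the medians are -0.54, -0.07, -0.12, -1.01 and -0.02.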

How the data were processed

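RNeasy was used to isolate total RNA and the MessageAmp Premier kit to label 100 ng of it, per the labels. The deposited values are log2 numbers, 1 per probe set and array, which the authors made with RMA, per the submitters' processing notes; its version and settings are not given in the sources used here. They were used as deposited. Of 22690 probe sets 64 were control probe sets, and of the other 22626 there were 20380 with a single gene symbol, 691 with several and 1555 unnamed here. Gene identifiers were looked up in RefSeq GRCm38.p6, where those of 29 probe sets had no match and 0 symbols changed. Each gene was read by its probe set with the highest mean over the 9 arrays, which gave 12393 genes. Probe sets of related genes can share signal.

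Groups and replicate numbers come from the labels. The 3 comparisons were tested in 1 fit of limma 3.58.1 in R 4.3.3, with a mean per group and 6 residual degrees of freedom. Variances were moderated by eBayes with a trend, and two-sided p-values were adjusted over the 12393 genes by the Benjamini-Hochberg method, with calls at 0.05. Permuting 3 against 3 arrays gives no exact p below 0.1, so no such test was run. The design text calls the samples independent. Arrays have no read depth, so the number of arrays limits the precision. Marker sums are of linear values.

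The members and the other gene lists were chosen with earlier results of these data known. Any measured member may be named. Beside them come Foxp3, Crebbp and Mki67 and, of each other list, up to 4 called genes per comparison with the largest change. Promoters were printed for up to 1 member per role with an E2F word and a call, in order of adjusted p. The p300 gene itself is not analysed here. For each comparison 19 alternatives were run, 10 of processing or design and 9 that leave out 1 array.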

Additional observations from a re-analysis of the deposited data

Results flagged for a closer look

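The direct test of CBP-deleted against p300-deleted cells picked out genes for which the 2 deletions differed from each other. Values are CBP-deleted minus p300-deleted differences on the log2 scale, each with a limma adjusted p under 0.05, and each higher in CBP-deleted cells. Among the licensing genes they were 1.22 for Cdc6, 1.02 for Gmnn, 0.72 for Orc6 and 0.71 for Orc1. The helicase subunits had 0.87 (Mcm3), 0.83 (Mcm5), 0.60 (Mcm7), 0.57 (Mcm6), 0.53 (Mcm2) and 0.53 (Mcm4). The genes that turn the helicase on had 1.10 (Gins1), 0.88 (Mcm10) and 0.79 (Cdc45).

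Among polymerase genes the primase and alpha subunits had 1.14 (Pola1), 1.00 (Prim1), 0.79 (Prim2) and 0.49 (Pola2). Epsilon had 0.90 (Pole) and 0.88 (Pole2), and delta 0.49 (Pold1) and 0.41 (Pold2). The clamp loader had 0.92 (Rfc4), 0.78 (Rfc5) and 0.51 (Rfc3). Lig1 differed by 0.85, Fen1 by 0.50 and Rpa2 by 0.45. Nucleotide supply genes had 1.27 (Rrm2), 0.98 (Tk1), 0.92 (Dut) and 0.88 (Rrm1).

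Chromatin genes had 1.09 (Asf1b), 1.08 (Uhrf1), 1.05 (Hells), 0.96 (Chaf1b) and 0.61 (Ezh2). The G1/S regulators had 1.03 (Ccne2), 0.77 (Ccne1) and 0.76 (E2f1). Checkpoint and repair genes had 1.21 (Chek1), 0.84 (Ung), 0.80 (Brca1) and 0.70 (Tipin). For Brca1 the dimmer probe sets gave -0.09, 0.69 and 0.44. Of these only 0.69 passed with every probe set tested on its own (limma adjusted p = 0.0209).

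Outside the list, the largest called differences were 1.03 (Chtf18), 0.91 (Exo1), 0.83 (Cdca7) and 0.81 (Dbf4) for other replication genes, and 1.24 (E2f8) and 0.83 (Tfdp1, a partner of E2F proteins) for further regulators. The mitosis genes with the largest differences were Bub1 (1.70) and Ttk (1.63), kinases of the spindle checkpoint, Birc5 (1.67), the survivin gene, and Ccna2 (1.55), cyclin A2. The plasma cell markers ran the other way, with a summed linear level of 4746 to 6199 in CBP-deleted and 9718 to 11609 in p300-deleted arrays, and their part in these differences was not tested.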

How the results depend on the processing

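Over the 19 alternatives no call of a member turned its direction. Of 985 values per comparison, 934 kept their side of the threshold for CBP-deleted against control cells, 770 for p300-deleted against control cells and 900 between the knockouts. In CBP-deleted against control cells, the 611 genes and 4 members called became 261 and 2 in a fit of those groups alone, 1755 and 15 with array weights, and 364 and 2 with the replicate block. With every probe set tested on its own, 570 of 20380 probe sets and 2 members were called. In p300-deleted against control cells, the 503 genes and 35 members became 165 and 11 in a fit of those groups alone. They became 356 and 20 when the probe sets of each gene were averaged, 1028 and 38 with array weights, and 326 and 24 with the replicate block. Between the knockouts, the 645 genes and 43 members became 1386 and 47 in a fit of those groups alone, 1467 and 47 with array weights, and 524 and 41 with the block. Without single arrays the genes called ranged from 85 to 1131, from 65 to 854 and from 212 to 1041 in the same order of comparisons. The members called ranged from 0 to 15, from 5 to 33 and from 22 to 46, and their medians from 0.09 to 0.32, from -0.61 to -0.45 and from 0.73 to 0.82. A fit without 1 array leaves fewer residual degrees of freedom. Otherwise the cause of these shifts was not tested. No pairing by replicate number was seen. Deviations from the group means correlated at -0.234 to 0.270 for same-numbered arrays and at -0.192 to 0.259 for differently numbered arrays of different groups. With 3 arrays per group this check cannot exclude a pairing. Probe sets near the bottom of the scale, those of Tyms, Orc1 and Ccne2, limit what can be read of these genes.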
